A study of Homo sapiens with 3 samples.

Results

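To describe glycolysis in 293T cells in which the L1 antisense promoter was targeted, 10 genes for glycolytic enzymes were chosen from the gene tables of 3 RNA-seq libraries: HK1, HK2, GPI, PFKP, PFKL, ALDOA, TPI1, PGAM1, ENO1 and LDHA. They are 10 of 23284 gene names listed in every library, and they were taken by name, without a threshold on their values. The 293T line (HEK293T) derives from human embryonic kidney. Every library came from cells that received dCas9-VP64, in which a cleavage-dead Cas9 carries a transcriptional activator. The mock library received the parental vector without a guide against L1, and the other libraries received sgL1ASP #1 or sgL1ASP #3, guides against the antisense promoter (ASP) of the LINE-1 (L1) retrotransposon. The vectors were transfected, so a library averages over cells that took them up and cells that did not. There is 1 library per condition. Differences between the conditions therefore have no replicate check, and no p-value is given. The study asked which genes follow activation of the L1 ASP, and counted those more than 1.5-fold higher at both of the steps from mock to sgL1ASP #3 and from sgL1ASP #3 to sgL1ASP #1. The comparisons below take its 1.5-fold limit for each pair of libraries and are not that rule.

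The deposited values are FPKM, mapped fragments scaled to exon length and to library size, 1 per gene and library. FPKM is per length, so levels of different genes can be compared. Values above 0 were listed for 16640 names in mock, 16693 with sgL1ASP #1 and 16440 with sgL1ASP #3. Read counts were not used here, and the depth was estimated from the spacing of the lowest values as 10400000 reads in mock, 10300000 with sgL1ASP #1 and 8690000 with sgL1ASP #3. The estimated reads per member ran from 389 (PGAM1 in mock) to 20057 (ALDOA in sgL1ASP #1). Intervals below are 95% exact intervals from these estimated reads. They cover counting error only, and say nothing of the spread between cultures.

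Of the 8 genes fixed as markers of HEK293T cells, 8 were above 0 and 7 had a mean FPKM of at least 1. The marker VIM (vimentin) had FPKM 807 in mock, 904 with sgL1ASP #1 and 862 with sgL1ASP #3, and PAX2 was the only marker with a mean under 1, at 0.522, 0.654 and 0.658. The keratin genes KRT8 (68.1, 66.9 and 73.2) and KRT18 (60.3, 59.3 and 60.6) were the next most abundant, and the transcription factor genes GATA3 (6.78, 7.17 and 7.96) and LHX1 (1.48, 1.76 and 1.63) were lower. The 8 markers together summed to 960, 1055 and 1021. Markers of other tissues, in which other isoenzymes prevail, were low. The 5 muscle markers summed to 3.29, 1.86 and 2.34, of which ACTA1 held 2.08, 0.976 and 1.43 (about 28, 13 and 16 reads), DES had 0.466, 0.284 and 0.337, and MYH2 was listed at 0. The 4 liver markers summed to 5.93, 3.83 and 4.204, mostly APOA1 (5.39, 3.36 and 3.82), with ALB at 0.467, 0.284 and 0.337 and CYP3A4 at 0.0737, 0.187 and 0.0443, and TTR was listed at 0. Of the 4 blood markers, HBA1 had 0.259, 1.31 and 2.80 (about 1, 5 and 9 reads), and PTPRC, HBB and CD3E were listed at 0. Of the 4 markers of testis germ cells, DDX4 had 0.131, 0.178 and 0.158, and PRM1, TNP1 and ODF1 were listed at 0.

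Glycolysis breaks glucose down to pyruvate in the cytosol and yields ATP without oxygen. Hexokinase (HK) phosphorylates glucose, phosphofructokinase (PFK) makes the committed step, aldolase (ALDO) splits the sugar into triose phosphates, and the later enzymes harvest ATP. Lactate dehydrogenase (LDH) returns pyruvate to lactate and renews the NAD+ that the pathway needs. Most steps have several isoenzymes from separate genes, used by different tissues, and many glycolytic genes are known targets of hypoxia-inducible factors and of MYC, which bind short motifs that share the letters ACGTG. Proliferating cell lines such as HEK293T are known for high glycolysis in the presence of oxygen.

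Because most members were a little higher with both guides as deposited (values below), their promoters were searched for ACGTG, the core of the hypoxia response element, on both strands in the 250 bases before each RefSeq start (GRCh38.p14). The motif was chosen after the values were seen. It lies within the E-box CACGTG, which reads the same on both strands and so counts as 2 overlapping matches. The letters were present in 9 of 24 windows of the members (37.5%) and in 6501 of 35116 windows of all RefSeq genes (18.5%). This background was not matched to the members in base content or in expression. By gene, 6 of 10 members held it (60%), against 21.7% of 27305 genes, but more windows per gene were searched for the members, which raises the share by gene. The members with a match were HK2, GPI, PFKP, ALDOA, TPI1 and LDHA. HK2 had 6 matches over 2 windows, LDHA had 5 in 1 of 2 windows and ALDOA had 4 over 3 windows. No match was found in the 7 windows of HK1 or in the single windows of PFKL, PGAM1 and ENO1. Of the members past 1.2-fold of mock with either guide as deposited, HK2 and LDHA held a match, and PFKL and PGAM1 did not. A relation between match and ratio was not tested. The stretch around the match nearest the first start is printed below (GRCh38.p14) for HK2 (chr2:74834049-74834113), ALDOA (chr16:30064071-30064135) and LDHA (chr11:18394460-18394524), the carriers with the most matches. All are on the plus strand, and capitals mark ACGTG or its reverse complement CACGT.
HK2: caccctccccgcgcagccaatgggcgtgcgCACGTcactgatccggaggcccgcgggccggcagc
ALDOA: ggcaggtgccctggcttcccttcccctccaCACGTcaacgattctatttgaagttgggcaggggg
LDHA: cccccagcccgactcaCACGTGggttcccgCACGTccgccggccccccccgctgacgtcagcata
The HK2 match starts 48 bases before the start site and the ALDOA match 178 bases before it. In LDHA, the E-box starts 87 bases before the start site and another match follows it. A match describes the sequence only, and binding was not measured here.

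The members took a similar part of the summed FPKM of all genes in the 3 libraries. Their FPKM summed to 3346 in mock, 3763 with sgL1ASP #1 and 3700 with sgL1ASP #3, which is 1.12-fold and 1.11-fold mock. This is 0.540%, 0.569% and 0.549% of the summed FPKM of all genes. The sum of all genes itself differed, with 619903 in mock, 661449 with sgL1ASP #1 and 673483 with sgL1ASP #3, and the 1616 names of short noncoding RNA genes (such as small nucleolar RNAs and microRNAs) held 13.2%, 16.0% and 18.6% of it. Without these genes the members held 0.621%, 0.677% and 0.675%, more with either guide than in mock. The short noncoding genes summed to 81555 in mock, 105910 with sgL1ASP #1 and 125184 with sgL1ASP #3. Genes of at least 300 bases summed to 532262, 549352 and 541934. Setting libraries to the same FPKM sum, as below, carries the short noncoding difference into every ratio. Why the short noncoding sums differed was not tested. In a bulk library, fewer cells with a transcript and less of it per cell cannot be told apart.

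The members spanned a 50.2-fold range of level in mock, from PGAM1 at 23.3 to ALDOA at 1172. ALDOA alone made up 35.0% of the members' sum in mock and ENO1 32.0%. The order in mock was ALDOA, ENO1, TPI1, LDHA, GPI, HK1, PFKL, HK2, PFKP and PGAM1, with ranks of 63, 68, 127, 203, 798, 2015, 2369, 3946, 3978 and 4067 among all genes. ALDOA and the members that act after it thus stood above the hexokinases, GPI and the phosphofructokinases, with PGAM1 as the exception. Neighbours in this order were not all separated. Over the 3 libraries the values of HK2, PFKP and PGAM1 overlapped and their order differed, PGAM1 being the highest of these with sgL1ASP #3 and the lowest in mock. PFKL was below HK1 in mock and sgL1ASP #3 and above it in sgL1ASP #1. ALDOA was above ENO1 in every library, although the lowest ALDOA value (1172) was below the highest ENO1 value (1199).

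**Figure D1:**
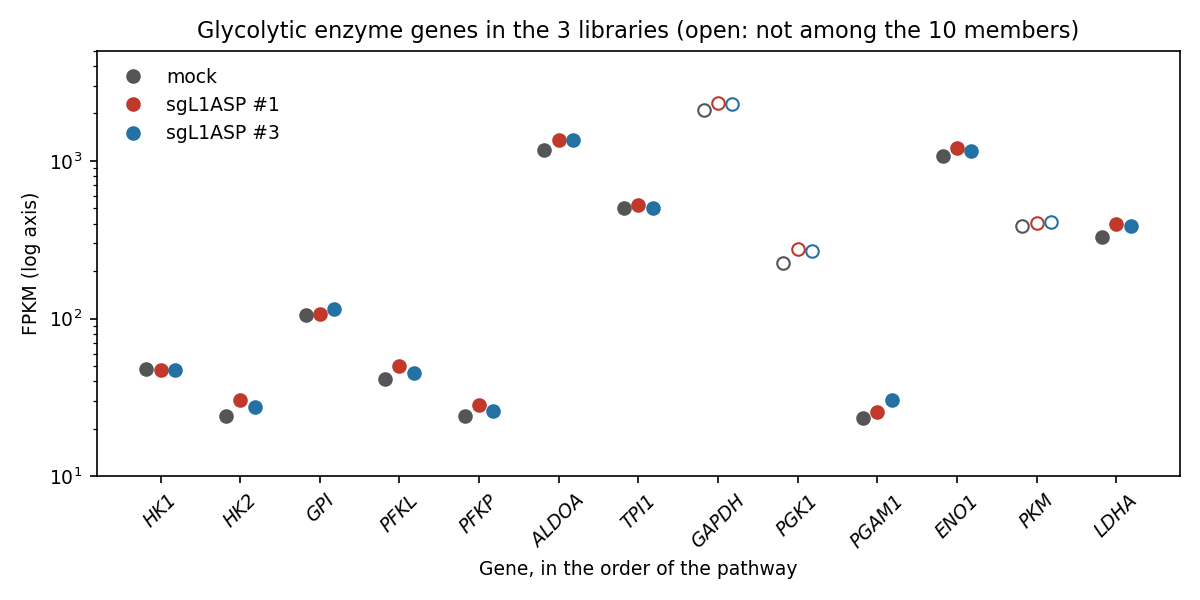
FPKM (log axis) of the glycolytic enzyme genes in pathway order, 1 point per library. Filled points are the 10 members and open points are GAPDH, PGK1 and PKM, which complete the pathway. The members span 23.3 to 1358, a far wider range than the points of any single gene. Among the members, the points of HK2, PFKP and PGAM1 overlap, as do those of HK1 and PFKL and those of ALDOA and ENO1.

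Hexokinase traps glucose in the cell. HK1 (chr10:71029740-71161640, plus strand, 18 exons; GRCh37), the widely expressed form, had FPKM 47.6 in mock, 47.5 with sgL1ASP #1 and 47.5 with sgL1ASP #3. HK2 (chr2:75061254-75120486, plus strand, 18 exons), the form of insulin-sensitive tissues and of many tumours, had 24.2, 30.3 and 27.4. HK1 was flat across the libraries and HK2 was lowest in mock and highest in sgL1ASP #1, at 1.25-fold mock (log2 ratio 0.32, interval 0.22 to 0.43) and 1.13-fold with sgL1ASP #3 (0.18, interval 0.07 to 0.29). GPI (chr19:34850385-34893318, plus strand, 18 exons), which turns glucose 6-phosphate into fructose 6-phosphate, had 106, 107 and 115. For GPI the high library was sgL1ASP #3, at 1.09-fold mock (log2 0.12, interval 0.06 to 0.18).

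Both phosphofructokinase members were lowest in mock and highest in sgL1ASP #1. PFKL (chr21:45719934-45747259, plus strand, 22 exons), the liver-type subunit, had 41.2 in mock, 49.9 with sgL1ASP #1 and 45.4 with sgL1ASP #3. PFKP (chr10:3108525-3179910, plus strand, 22 exons), the platelet-type subunit, had 24.0, 28.5 and 25.8. The ratio of PFKL to mock was 1.21-fold with sgL1ASP #1 (log2 0.28, interval 0.17 to 0.39) and 1.10-fold with sgL1ASP #3 (0.14, interval 0.02 to 0.26). That of PFKP was 1.19-fold (0.25, interval 0.09 to 0.41) and 1.08-fold (0.11), and the latter interval, -0.06 to 0.28, included 0.

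ALDOA, TPI1 and ENO1 did not pass 1.2-fold in either comparison with mock. ALDOA (chr16:30075485-30081778, plus strand, 10 exons), the muscle-type aldolase that most cells express, had 1172 in mock, 1352 with sgL1ASP #1 and 1358 with sgL1ASP #3. Both guide libraries were above mock, by 1.15-fold and 1.16-fold (log2 0.21 in both), and nearly level with each other. TPI1 (chr12:6976283-6980112, plus strand, 7 exons), which interconverts the triose phosphates, had 505, 525 and 506. TPI1 was thus within 1.04-fold of mock in both. ENO1 (chr1:8921059-8939249, minus strand, 12 exons), the alpha enolase that makes phosphoenolpyruvate, had 1072, 1199 and 1158, or 1.12-fold and 1.08-fold mock. The mock value of ENO1 was the lowest of the 3.

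PGAM1 (chr10:99185948-99193201, plus strand, 4 exons), the brain-type phosphoglycerate mutase, had 23.3 in mock, 25.5 with sgL1ASP #1 and 30.5 with sgL1ASP #3. It was the member farthest from mock with sgL1ASP #3, at 1.31-fold (log2 0.39, interval 0.18 to 0.59), while its 1.09-fold ratio with sgL1ASP #1 (0.13) had an interval of -0.08 to 0.33. LDHA (chr11:18416107-18429972, plus strand, 8 exons), the LDH subunit that favours lactate formation, had 331, 398 and 387. Both guide libraries were above mock, by 1.202-fold (log2 0.27, interval 0.22 to 0.31) and 1.17-fold (0.23, interval 0.18 to 0.27).

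Several of these values are uncertain because copies of the genes exist, and how alike the copies are was not measured. The annotation lists processed pseudogenes by name for PGAM1 (13), LDHA (6), TPI1 (4), ENO1 (4), ALDOA (2) and HK2 (1), and none for HK1, GPI, PFKP and PFKL. Reads may be split between such copies and their parent. Of these copies 2 have a value of their own, TPI1P2 (0.210, 0.160 and 0.127) and TPI1P3 (0.851, 1.53 and 0.569), both far below TPI1. GPI, PFKP, ALDOA and LDHA each overlap 1 other annotated gene on the same strand, none of them in the tables by that name.

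Compared with mock, no member passed 1.5-fold with sgL1ASP #1 (0 of 10), where 3.23% of 12727 genes with mean FPKM of at least 1 and a ratio did so in either direction. Past 1.2-fold, 3 members were higher (HK2, PFKL and LDHA) and 0 lower, against a background of 14.5%. Low genes vary more by counting alone, and of the 4573 genes with mean FPKM of at least 20, a limit every member meets, 3.39% passed 1.2-fold. Of the members, 9 were above mock at any size, HK1 being the exception, against 50.3% of all genes (60% of genes with mean FPKM of at least 50, a limit 5 members meet). The median log2 ratio of the members was 0.18 and that of all genes 0.0010. As deposited, the counting interval lay above 0 for HK2, PFKP, PFKL, ALDOA, TPI1, ENO1 and LDHA, that is for 7 of 10. The share of all genes with such an interval was not counted. The scaling between libraries bears on these ratios and intervals. Setting each library to the same FPKM sum shifts every log2 ratio by -0.094. The intervals of PFKP (lower limit 0.090 as deposited) and TPI1 (0.0046) would then include 0. That of GPI (upper limit 0.071) would lie below 0. With each library set to the same FPKM sum, the median of all genes moved to -0.093 and that of the members to 0.091. GPI and TPI1 joined HK1 below mock (7 of 10 above, beside 24.8% of all genes). The members past 1.2-fold went from 3 to 0, while 18.3% of all genes passed. The same sum over genes of at least 300 bases shifts every log2 ratio by only -0.046. The median of all genes was then -0.045 and that of the members 0.14. Under that scaling 8 of 10 members were above mock, beside 36.5% of all genes.

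With sgL1ASP #3 again 0 of 10 members passed 1.5-fold, against 3.48% of 12718 genes. Past 1.2-fold was 1 member, PGAM1, which was higher, against 15.2% (3.13% at mean FPKM of at least 20). The members above mock were 9 of 10, all but HK1, against 50.6% of all genes and 60.9% of those with mean FPKM of at least 50. The median log2 ratio was 0.13, that of all genes 0.0019. As deposited, the interval lay above 0 for HK2, GPI, PFKL, ALDOA, PGAM1, ENO1 and LDHA, 7 of 10, and the share of all genes was not counted. The same FPKM sum shifts every log2 ratio by -0.12. The intervals of HK2, GPI, PFKL and ENO1 (lower limits 0.070, 0.057, 0.021 and 0.080 as deposited) would then include 0. Those of HK1 and TPI1 (upper limits 0.10 and 0.056) would lie below 0. Set to the same FPKM sum, the median of all genes was -0.118 and that of the members 0.012, and HK1, PFKP, TPI1 and ENO1 were below mock, so that 6 of 10 were above, beside 20.7% of all genes. PGAM1 alone was past 1.2-fold under this scaling too, beside 20.8% of all genes. The same sum over genes of at least 300 bases shifts every log2 ratio by only -0.026. The median of all genes was then -0.024 and that of the members 0.11. Under that scaling 8 of 10 members were above mock, beside 42.6% of all genes. Both comparisons use the same mock library, so their values are not independent of each other.

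Between the guides, 0 of 10 members passed 1.5-fold (background 3.34%) and 0 passed 1.2-fold (background 14.8%). With the libraries set to the same sum over genes of at least 300 bases, however, PGAM1 passed 1.2-fold, lower in sgL1ASP #1, beside 15.3% of all genes. In sgL1ASP #1, 6 members were higher than in sgL1ASP #3, against 49% of all genes, and HK1, GPI, ALDOA and PGAM1 were lower. With the same FPKM sum 8 were higher, against 56.8% of all genes. The median was 0.045, that of all genes -0.0032. HK2 (log2 0.14), PFKL (0.14), TPI1 (0.054) and ENO1 (0.051) had an interval above 0. GPI (-0.11, interval -0.17 to -0.05) and PGAM1 (-0.26, interval -0.46 to -0.06) had one below 0. The share of all genes with such intervals was not counted. The same FPKM sum shifts every log2 ratio by 0.026. The intervals of PFKP (lower limit -0.021 as deposited) and LDHA (-0.0064) would then lie above 0 as well.

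The choice of isoenzyme can be read within each library, where the scaling between libraries cancels. HK1 held 66.1% of the hexokinase FPKM in mock, 61.0% with sgL1ASP #1 and 63.2% with sgL1ASP #3. HK2 held 33.5% in mock (interval 32.0 to 35.2), 38.8% in sgL1ASP #1 (37.2 to 40.5) and 36.4% in sgL1ASP #3 (34.7 to 38.2). The ratio of HK1 to HK2 was accordingly highest in mock, at 1.97, and lower in sgL1ASP #1 (1.57) and sgL1ASP #3 (1.73). By estimated reads, where long transcripts weigh more, HK2 held 50.3% and HK1 49.5% in sgL1ASP #1. HK3 and HKDC1 stayed under FPKM 1.

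Phosphofructokinase was the most evenly divided family. PFKL held 39.3% in mock, 41.7% with sgL1ASP #1 and 40.8% with sgL1ASP #3. PFKM, the muscle-type subunit that is not among the members, held 37.9%, 34.5% and 36.0%, and PFKP 22.9%, 23.8% and 23.2%. PFKM itself had FPKM 39.7, 41.4 and 40.1, so that PFKL was 1.04-fold PFKM in mock and 1.21-fold in sgL1ASP #1. In mock the intervals of their shares overlapped (37.5 to 41.1 for PFKL and 36.1 to 39.6 for PFKM), so neither led beyond counting error. Summed over the family, the level was 105, 120 and 111.

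Aldolase and enolase were nearly all of 1 type. ALDOA held 98.3% in mock, 98.5% with sgL1ASP #1 and 98.6% with sgL1ASP #3, with ALDOC, the brain form, at FPKM 19.8, 20.4 and 19.8. ENO1 held 96.7%, 96.5% and 96.6%. ENO2, the neuronal enolase, had FPKM 27.8, 31.8 and 30.8, and ENO3, the muscle enolase, 8.90, 11.5 and 10.1. No switch of the leading isoenzyme appeared in either family.

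Phosphoglycerate mutase was divided between a pair of genes. PGAM1 held 56.8% in mock (interval 51.6 to 61.9), 65.7% with sgL1ASP #1 (60.3 to 70.9) and 65.3% with sgL1ASP #3 (59.9 to 70.5), and both of the latter intervals overlapped that of mock. PGAM2, the muscle form, held the rest but for the retrocopy PGAM4, with FPKM 17.6, 13.2 and 16.2. The summed level of the step was 41.1, 38.8 and 46.8, the lowest value being that of sgL1ASP #1, where PGAM2 was lowest. The muscle markers summed to their lowest value in sgL1ASP #1 as well (1.86), mostly through ACTA1, while MYOD1 (0.357, 0.603 and 0.573) and the muscle enolase ENO3 were highest there, and their part in the PGAM2 value was not tested. The step was also the lowest of the pathway in each library, below hexokinase at 72.05, 77.9 and 75.2. With 13 processed pseudogenes of PGAM1 annotated, the level of this step is uncertain.

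LDHB, not LDHA, was the leading LDH subunit. LDHB, which favours the use of lactate, held 73.5% in mock, 70.8% with sgL1ASP #1 and 70.0% with sgL1ASP #3, with FPKM 927, 976 and 911. LDHA held 26.2% (interval 25.7 to 26.8), 28.9% (28.3 to 29.5) and 29.7% (29.1 to 30.4). The ratio of LDHB to LDHA was therefore highest in mock at 2.80, and 2.45 and 2.35 in the guide libraries. LDHC, the testis form, had 3.26, 3.64 and 3.59, and LDHAL6A and LDHAL6B were under 1.

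Steps without a member had 1 dominant gene each. GAPDH, which makes 1,3-bisphosphoglycerate, had FPKM 2110 in mock, 2327 with sgL1ASP #1 and 2311 with sgL1ASP #3, and was the most abundant enzyme gene of the pathway. PGK1, the first ATP-forming enzyme, had 225, 277 and 270, higher with both guides (log2 0.30 and 0.26). PKM, listed under its older name PKM2 and covering all pyruvate kinase forms of that gene, had 389, 403 and 409. The sperm form GAPDHS had 10.4, 8.63 and 9.45, and PGK2 and PKLR were under 1. Of the 20 isoenzyme genes outside the members, 11 had a mean FPKM of at least 1, and the other 9 did not exceed 0.649. With sgL1ASP #1, 9 of the 11 were above and 2 below mock, beside 50.3% of all genes above. Past 1.2-fold were 4 (PGK1 and ENO3 higher, PGAM2 and GAPDHS lower), beside 14.5% of all genes. The log2 intervals of PGAM2 (-0.83 to 0.00021) and GAPDHS (-0.65 to 0.10) included 0. That of ENO3 (0.0037 to 0.73) barely excluded it, and that of PGK1 was 0.26 to 0.33. With sgL1ASP #3, 7 were above and 4 below, and 0 passed, beside 50.6% above and 15.2% past 1.2-fold over all genes. Their medians of 0.073 and 0.071 turned to -0.020 and -0.049 with the same FPKM sum, where 5 were above and 6 below mock with either guide (all genes, 24.8% and 20.7% above) and PGK1 did not pass.

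Genes around the pathway were grouped into 5 lists. Of 15 transporter genes for glucose and lactate, 11 had a mean FPKM of at least 1. With sgL1ASP #1, 6 were above and 5 below mock and 3 passed 1.2-fold upward (SLC2A1, SLC2A3 and SLC16A8), beside 50.3% above mock and 14.5% past 1.2-fold over all genes. With sgL1ASP #3, 7 were above and 4 below, and only SLC16A8 passed (over all genes, 50.6% above and 15.2% past 1.2-fold). SLC2A1 (GLUT1, the glucose transporter of most cells) had FPKM 38.0, 47.4 and 43.3. SLC2A3 (GLUT3) had 16.6, 21.0 and 18.6. SLC16A8, a monocarboxylate transporter, had 5.47, 7.88 and 6.72 (about 119, 170 and 122 reads). The lactate transporter SLC16A1 (76.1, 71.3 and 74.8) and its chaperone BSG (478, 480 and 478) did not exceed mock by 1.2-fold. The medians were 0.0078 and 0.041, and -0.086 and -0.079 with the same FPKM sum. Under that scaling 4 were above and 7 below mock with sgL1ASP #1, where only SLC16A8 passed 1.2-fold (all genes, 24.8% above and 18.3% past). For sgL1ASP #3 these counts were 3 and 8, and only SLC2A6 passed, lower (all genes, 20.7% above and 20.8% past).

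Of 14 genes that control the flux, 11 had a mean FPKM of at least 1. With sgL1ASP #1, 4 were above and 7 below mock, with PDK1 and PFKFB4 higher past 1.2-fold and EPAS1 and TIGAR lower (over all genes, 50.3% above and 14.5% past 1.2-fold). PDK1, a kinase that turns pyruvate dehydrogenase off, had FPKM 11.4 in mock, 15.3 with sgL1ASP #1 and 12.8 with sgL1ASP #3. EPAS1 (HIF-2 alpha) had 5.53, 4.22 and 4.94. PDK1 and EPAS1 thus stood apart in opposite directions, and HIF1A (23.4, 21.5 and 23.3) did not pass 1.2-fold. PDK2 had 14.3, 13.1 and 13.8. PFKFB3, which makes the activator of phosphofructokinase, had 24.2, 28.7 and 26.2. With sgL1ASP #3, 5 were above and 6 below, and only PDP1 passed, higher (over all genes, 50.6% above and 15.2% past 1.2-fold). The list's medians were -0.12 and -0.0030, and -0.21 and -0.12 with the same FPKM sum. Under that scaling 3 were above and 8 below mock with sgL1ASP #1, and the same 4 genes passed (all genes, 24.8% above and 18.3% past). With sgL1ASP #3, PDP1 did not pass, PFKFB2 and EPAS1 passed as lower, and 2 were above and 9 below (all genes, 20.7% above and 20.8% past).

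Among genes for the branches of the pathway and the entry of pyruvate into mitochondria, the balance above and below mock depended on the scaling. Of 22 genes, 21 had a mean FPKM of at least 1, and 12 were above and 9 below mock with each guide, beside 50.3% and 50.6% of all genes above. As deposited, only H6PD, the hexose 6-phosphate dehydrogenase of the endoplasmic reticulum, passed 1.2-fold (4.02, 5.45 and 4.96), against 14.5% and 15.2% of all genes. The abundant TKT (312, 326 and 331) and TALDO1 (163, 164 and 170) of the pentose phosphate pathway and PHGDH (311, 304 and 311), the first enzyme of serine synthesis, were close to mock. MPC2, a subunit of the mitochondrial pyruvate carrier, had 15.8, 16.2 and 18.5. The medians were 0.0073 and 0.0092, and -0.086 and -0.11 with the same FPKM sum. Then 3 were above and 18 below mock with sgL1ASP #1, and for sgL1ASP #3 these counts were 5 and 16, where 24.8% and 20.7% of all genes were above. Past 1.2-fold under that scaling, GPD1L, PSPH, BPGM and PDHB were lower and H6PD higher with sgL1ASP #1, and GPD1L, PSPH and PDHB were lower with sgL1ASP #3, where 18.3% and 20.8% of all genes passed. Of 8 genes of gluconeogenesis, 3 had a mean FPKM of at least 1 and another 3 were listed at 0 in every library. PCK2 had 48.1, 47.2 and 46.1, G6PC3 had 42.3, 44.2 and 47.0, and PC (pyruvate carboxylase) had 13.1, 10.8 and 12.2, which is lower past 1.2-fold with sgL1ASP #1. The medians of the 3 were -0.027 and -0.059, and -0.12 and -0.18 with the same FPKM sum.

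Genes of the hypoxia response outside glycolysis were given for comparison, since hypoxia-inducible factors are known to act on glycolytic genes as well. Of 15 genes, 14 had a mean FPKM of at least 1, and CA9, a carbonic anhydrase, was listed at 0. With sgL1ASP #1, 13 were above and 1 below mock, and 6 passed 1.2-fold upward (BNIP3, EGLN3, P4HA1, KDM3A, BHLHE40 and PFKFB4), beside 50.3% above mock and 14.5% past 1.2-fold over all genes. The exception was ANKRD37, lower past 1.5-fold, at 2.92, 1.90 and 2.83, which is about 18, 11 and 14 reads. With sgL1ASP #3, 11 were above and 3 below, and BNIP3, EGLN3 and BHLHE40 passed 1.2-fold, where 50.6% of all genes were above and 15.2% passed. EGLN3, an oxygen-sensing prolyl hydroxylase, had 3.48, 4.60 and 5.60 and passed 1.5-fold with sgL1ASP #3 on about 91 reads in mock and 122 there. P4HA1, a collagen prolyl hydroxylase, had 56.3, 70.3 and 64.9, DDIT4 had 81.6, 95.02 and 91.7 and VEGFA, the vascular growth factor, 95.6, 105 and 107. All 3 were lowest in mock. The medians were 0.24 and 0.17, against 0.18 and 0.13 for the members. With the same FPKM sum they were 0.15 and 0.048, with 12 of 14 and 8 of 14 above mock, beside 24.8% and 20.7% of all genes. Those past 1.2-fold upward were then 3 with sgL1ASP #1 (BNIP3, EGLN3 and PFKFB4) and 1 with sgL1ASP #3 (EGLN3), and over all genes 18.3% and 20.8% passed in either direction. PFKFB4 is in this list and in that of flux control.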

How the data were processed

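The study extracted total RNA with an miRNeasy kit, prepared TruSeq stranded mRNA libraries and read them on a HiSeq 2500 in 75-base single-end mode. The authors used TopHat 2.0.13 for mapping to hg19, together with SAMtools 0.1.19 and Bowtie2 2.2.3, and deposited FPKM per gene from Cuffdiff 2.2.1 in strand-specific mode. The gene annotation and the scaling between libraries are not given in the sources used here. FPKM were used as deposited, without a pseudocount, and 0 value columns lacked a sample.

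The members and lists were chosen with earlier results of these data known. Genes were counted past 1.5-fold (the limit the study used for each of its 2 steps) and 1.2-fold, beside all genes with mean FPKM of at least 1 and both values above 0. All members are named, and the other isoenzymes apart from some that are not reported here. Of each other list the text names the 3 most abundant genes, the 2 farthest from mock and any past 1.5-fold; the other genes past 1.2-fold were named after their values were seen. Of the 128 listed genes, 4 were found under older names through RefSeq.

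Depth was estimated from the spacing of the lowest FPKM of genes with 1 transcript longer than 1000 bases (955, 1001 and 954 genes, of which 42, 64 and 50 lay in the peak that sets it), with 200 bases taken from the length. Reads per gene used the canonical transcript of GENCODE 44 on GRCh37, which also gave coordinates and exon numbers. Exact binomial intervals came from these reads and cover counting error only. The counting was tested on simulated data. The alternatives were pseudocounts of 0.1 and 1, other scalings, other limits on mean FPKM, and estimated reads in place of FPKM. The tools were SciPy 1.17.1, NumPy 2.4.6, matplotlib 3.10.9 and pandas 2.3.3 under Python 3.11.15.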

Additional observations from a re-analysis of the deposited data

How the results depend on the processing

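No paired analysis was possible because a single library stands for each condition, and for the same reason no library could be left out. The count of 0 members past 1.5-fold was the same in the 3 comparisons with libraries set to the same sum of 1000000 or to the median ratio. Neither scaling could have raised it. They shift log2 ratios by 0.12 or less in size, and no member's log2 ratio as deposited exceeded 0.39. Pseudocounts of 0.1 and 1 and other limits on the background (none, or mean FPKM 50) were also run, but cannot raise a count of 0. At 1.2-fold it was 3 with sgL1ASP #1, 1 with sgL1ASP #3 and 0 between the guides. Members past 1.2-fold with sgL1ASP #1 numbered 0 with the same sum, beside 18.3% of all genes. With the sum over genes of at least 300 bases they numbered 1 (HK2), beside 15.5% of all genes. These settings were added after the data were seen. The medians of the members moved to 0.091 with sgL1ASP #1 and 0.012 with sgL1ASP #3 with the same sum, and to 0.14 with sgL1ASP #1 with the sum over genes of at least 300 bases, but no median changed sign. Of the 30 single log2 ratios, 12 moved by more than their counting error with the same sum and 2 with the sum over longer genes. In estimated reads in place of FPKM, where long transcripts weigh more, the shares in mock, sgL1ASP #1 and sgL1ASP #3 were 55.1%, 49.5% and 51.9% for HK1, 76.6%, 82.7% and 82.5% for PGAM1, 96.1%, 95.9% and 96.0% for ENO1, and 59.98%, 56.7% and 55.7% for LDHB. By reads HK2 led the hexokinases in sgL1ASP #1 (50.3%), and PFKM led PFKL in mock (40.4% against 39.2%). The members' part of all FPKM was 0.621%, 0.677% and 0.675% without short noncoding genes. Depth limits the low members most, since PGAM1 rests on about 389 to 425 reads per library. The cause of these differences was not tested.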
